A study of Populus ussuriensis with 2 samples.

Results

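Transcripts of 9 genes of the poplar WND (wood-associated NAC domain) family were measured by RNA-seq at the base of stem cuttings of Populus ussuriensis. The 9 members were chosen by locus ID, a rule that holds no measured value, and are 9 of the 36385 loci in the deposited files. They are WND1A (Potri.011G153300), WND1B (Potri.001G448400), WND2A (Potri.014G104800), WND2B (Potri.002G178700), WND3A (Potri.015G127400), WND3B (Potri.012G126500), WND4B (Potri.013G113100), WND5A (Potri.007G014400) and WND5B (Potri.005G116800). These names, and the split into 4 fibre-type genes (the WND1 and WND2 copies) and 5 vessel-type genes (WND3, WND4 and WND5), come from the list that defined the set, since the files pair no name with an ID. The partner copy of WND4B is not in the list and was not analysed here. Whether the list leaves out further WND genes of poplar was not checked. The family sum below is the sum over these 9 genes. No genome, annotation or sequence table was used, so the genes are given without coordinates or sequence, and the tissue label was not checked against marker genes.

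NAC proteins are plant transcription factors that bind DNA through a conserved domain at the amino-terminal end. In Arabidopsis, close relatives of the WND genes act at the top of the network that builds secondary walls. SND1 and NST1 switch on wall thickening in fibres, the supporting cells of wood, and the VND genes do so in vessels, the water-conducting cells, where they also start the death of the cell. In poplar wood, WND proteins bind a shared element in the promoters of MYB genes and wall genes, and together these regulators turn on the synthesis of cellulose, xylan and lignin. The words fibre-type and vessel-type describe kinship to the Arabidopsis genes. They do not say in which cells of this tissue a poplar copy was transcribed.

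There were 2 libraries, which the labels describe alike as the lowest 0.5 cm of in vitro stem cuttings at day 14 after cutting. The seedlings were cut at 2 weeks of age and had been grown on gelled medium with Murashige and Skoog salts and sucrose, no genotype, transgene or added hormone is named, and the libraries form 1 group (n = 2), called replicate 1 and replicate 2 here. Whether they came from separate cuttings is not stated, so the spread between them may be technical. A whole stem base holds many cell types, and fewer cells of a type cannot be told apart from less RNA per cell. Levels are the authors' FPKM (fragments per kilobase of transcript per 1000000 mapped fragments), summed over the listed transcripts of a locus. The values imply a depth of 10957286 reads for replicate 1 and of 12513099 reads for replicate 2.

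At the stem base, transcripts of the 9 listed WND genes came mostly from fibre-type genes, and mostly from WND1A and WND1B. These 9 genes summed to 73.3 FPKM in replicate 1 and 63.9 FPKM in replicate 2. Per 1000000 of all listed FPKM this was 132 in replicate 1 and 119 in replicate 2. Fibre-type genes held 78.6% of this sum in replicate 1 and 75.6% in replicate 2, and WND1A alone held 39.9% and 42.0%. WND genes outside the list, among them the partner of WND4B, are not in these shares. Of the 9 members, 7 reached 1 FPKM in both libraries, all 4 fibre-type genes and 3 of the 5 vessel-type genes. Over all listed loci 56.5% did so, and 9 loci are too few to set a share against that background.

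**Figure D1:**
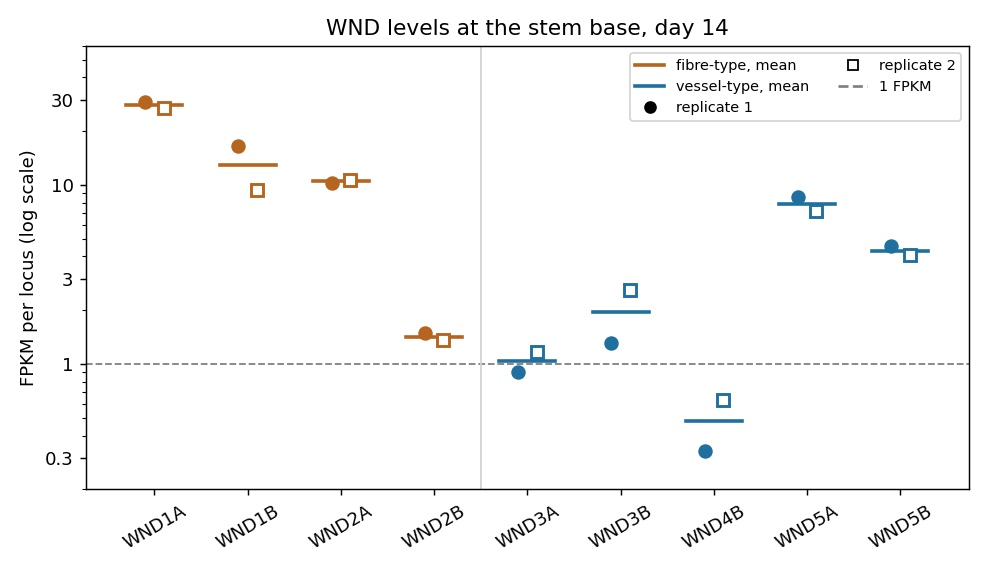
FPKM of each WND locus on a log scale, with filled circles for replicate 1, open squares for replicate 2 and a line at their mean; fibre-type genes stand on the left and vessel-type genes on the right, and the dashed line marks 1 FPKM. WND1A lies highest at 29.2 and 26.9 FPKM, WND2B lies among the vessel-type genes, and WND4B lies below 1 FPKM in both libraries.

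WND1A and WND1B are the poplar counterparts of the Arabidopsis fibre switch SND1. WND1A measured 29.2 FPKM in replicate 1 and 26.9 FPKM in replicate 2, a mean of 28.0 ± 1.67 FPKM (SD, n = 2). It was the highest member in both libraries, and its mean was above that of 80.3% of the 20562 loci detected in both. The copy WND1B measured 16.6 FPKM in replicate 1 and 9.42 FPKM in replicate 2, a mean of 13.0 ± 5.05 FPKM (SD, n = 2). Both WND1B values lay below both WND1A values, and WND1B held 36.2% of the pair in replicate 1 and 26.0% in replicate 2. The mean of WND1B was above that of 57.1% of detected loci, whose median was 10.7 FPKM.

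WND2A and WND2B are close relatives of the NST genes of Arabidopsis. WND2A was nearly equal in the libraries, measuring 10.3 FPKM in replicate 1 and 10.7 FPKM in replicate 2 (10.5 ± 0.23, SD, n = 2). WND2B measured 1.49 FPKM in replicate 1 and 1.36 FPKM in replicate 2 (1.43 ± 0.094, SD, n = 2). WND2A thus stood near the median of detected loci, while the mean of WND2B was above that of only 2.24% of them. WND2B rested on at least 25 reads in replicate 1 and 26 in replicate 2. The 95% Poisson interval of its FPKM, which covers counting error only and is widest at the smallest possible number of reads, was 0.966 to 2.20 in replicate 1 and 0.888 to 1.99 in replicate 2. These intervals did not reach those of WND2A, whose lower ends were 6.87 FPKM in replicate 1 and 7.35 FPKM in replicate 2.

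Among the vessel-type genes, relatives of the Arabidopsis VND switches, the WND5 copies were highest. WND5A measured 8.55 FPKM in replicate 1 and 7.16 FPKM in replicate 2 (7.85 ± 0.98, SD, n = 2). WND5B measured 4.56 FPKM in replicate 1 and 4.05 FPKM in replicate 2 (4.31 ± 0.36, SD, n = 2). Together the WND5 copies held 83.7% of the vessel-type sum in replicate 1 and 71.8% in replicate 2.

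The WND3 copies were both low. WND3A measured 0.906 FPKM in replicate 1 and 1.17 FPKM in replicate 2 (1.04 ± 0.19, SD, n = 2). WND3B measured 1.32 FPKM in replicate 1 and 2.60 FPKM in replicate 2 (1.96 ± 0.91, SD, n = 2). Here the B copy was the higher one in each library, but with few reads, at least 20 in replicate 1 and 45 in replicate 2 for WND3B, and 19 and 28 for WND3A. The Poisson intervals of the 2 copies overlapped in replicate 1, with 0.546 to 1.42 FPKM for WND3A and 0.806 to 2.04 FPKM for WND3B. In replicate 2 they did not, with 0.777 to 1.69 FPKM for WND3A and 1.90 to 3.48 FPKM for WND3B.

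WND4B was the lowest member, measuring 0.329 FPKM in replicate 1 and 0.633 FPKM in replicate 2 (0.481 ± 0.22, SD, n = 2). These values rested on at least 5 and 11 reads. Their Poisson intervals, 0.107 to 0.767 FPKM in replicate 1 and 0.316 to 1.13 FPKM in replicate 2, overlapped those of WND3A in both libraries. The mean of WND3A was 2.16-fold that of WND4B, and WND4B was the lower in both libraries. The gap of 1.11 on the log2 scale was smaller than the SD of 1.20 that loci from 0.2 to under 1 FPKM showed between the libraries, and larger than their robust SD of 1.015.

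**Figure D2:**
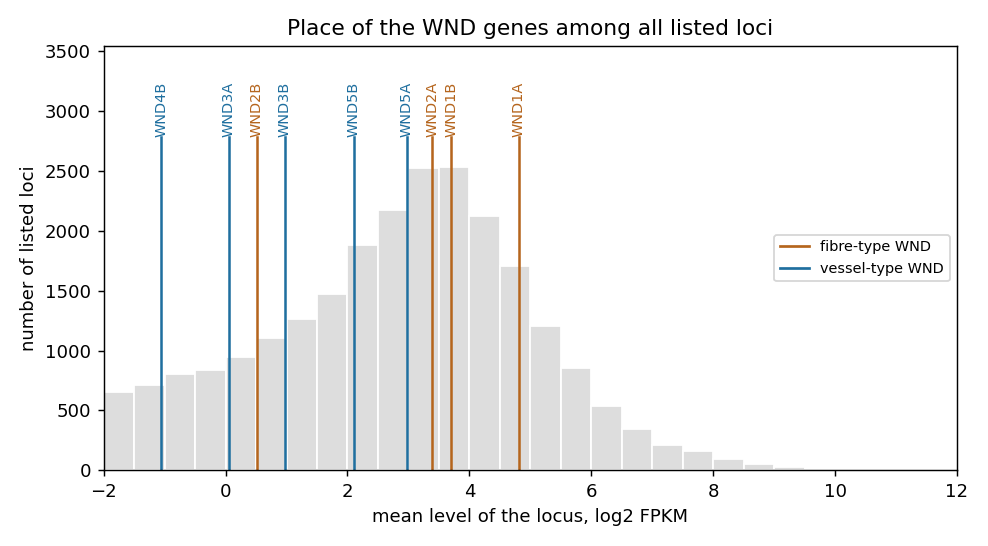
Number of listed loci by mean level (log2 FPKM, in grey bars of 0.5; loci under a log2 of -2 are not drawn), with a labelled line at the mean of each WND gene. WND1A and WND1B lie to the right of the median of detected loci (10.7 FPKM), WND2A lies next to it, and the vessel-type genes and WND2B lie to the left.

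The fibre-type sum was 57.6 FPKM in replicate 1 and 48.3 FPKM in replicate 2, against vessel-type sums of 15.7 FPKM and 15.6 FPKM. Over the 9 listed genes, fibre-type transcripts were thus 3.68-fold higher in replicate 1 and 3.09-fold higher in replicate 2. The log2 ratio was 1.75 ± 0.18 (SD, n = 2). The 2 fibre-type sums did not overlap the 2 vessel-type sums (exact two-sided permutation test, p = 0.333, adjusted 0.333 over 5 such tests, the smallest p for 2 values against 2). These 4 sums come from only 2 libraries. Paired within libraries, the exact two-sided sign-flip test gave p = 0.5, the smallest p that 2 libraries allow. The vessel-type sums of the libraries were almost equal, but their parts shifted in opposite directions. From replicate 1 to replicate 2, the WND3 pair rose from 2.23 to 3.77 FPKM, and WND4B also rose. The WND5 pair fell from 13.1 to 11.2 FPKM. With vessel-type sums so close, the difference between the 2 ratios came with the fibre-type sum, of which WND1B was the member that differed most.

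The size of the fibre-type lead depended on how the genes were summarised. Per locus, the fold of the mean was 4.60 in replicate 1 and 3.87 in replicate 2, and the fold of the median was 10.2 and 3.86. Without WND1A, the highest member, the fibre-type sum was 28.4 FPKM in replicate 1 and 21.5 FPKM in replicate 2, which was 1.81-fold and 1.37-fold the vessel-type sum. Nor did the lead hold gene by gene. Of the 20 combinations of a fibre-type with a vessel-type gene, the fibre-type gene was higher in both libraries in 17. WND2B was below WND5A and below WND5B in both libraries, and its order with WND3B differed between the libraries.

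In each of the 4 pairs of copies, the same copy was the higher one in both libraries. WND2A over WND2B was the widest, at 6.93-fold in replicate 1 and 7.86-fold in replicate 2. WND1A over WND1B was 1.76-fold in replicate 1 and 2.85-fold in replicate 2. WND5A over WND5B was 1.87-fold and 1.77-fold. WND3A was at 0.687 times the level of WND3B in replicate 1 and 0.450 times in replicate 2, so that this pair alone had its higher level in the B copy.

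Each copy difference was set beside the spread that a locus of the lower copy's level shows between the 2 libraries. On the log2(FPKM + 0.1) scale, the A copy minus the B copy was 2.80 ± 0.12 for WND2 and 0.85 ± 0.061 for WND5 (SD, n = 2). Loci from 1 to under 5 FPKM, the level class of WND2B and WND5B, had an SD of 0.72 for the log2 ratio of the libraries (5898 loci). The WND2 difference was 3.89 times this spread and the WND5 difference 1.18 times. For WND1 the difference was 1.16 ± 0.49 (SD, n = 2), which was 2.61 times the SD of 0.44 over the 9415 loci from 5 to under 20 FPKM. For WND3 it was -0.79 ± 0.42 (SD, n = 2). In replicate 1, at -0.50, it was smaller than the SD of 0.72 of its class, and close in size to the robust SD of 0.50. The class spreads were taken without the added 0.1, which shrinks ratios of low values. The comparison with the robust SD is therefore too close to decide, and the multiples above are approximate. The exact two-sided permutation test gave p = 0.333 (adjusted 0.333 over the same 5 tests) for each pair, and the exact sign-flip test paired within libraries gave p = 0.5. Both are the smallest p these 2 libraries can give, so neither bears on the size of a difference. Copies with similar sequence can exchange reads, and how the authors' counting treated such reads is not known, so the split within a pair is less certain than its sum.

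**Figure D3:**
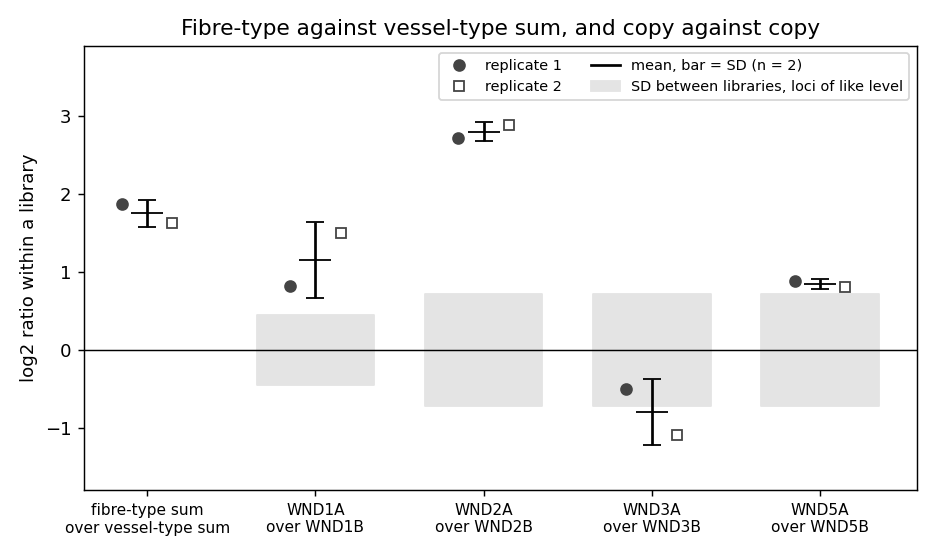
Log2 ratios within each library of the fibre-type over the vessel-type sum and of the A over the B copy of each pair, with filled circles for replicate 1, open squares for replicate 2 and the mean with its SD (n = 2); grey bands are plus and minus the SD of the library ratio over all loci of the lower copy's level class. Copy ratios have 0.1 FPKM added to each copy, and the bands do not. The WND1, WND2 and WND5 points lie above their bands. The WND3 point of replicate 1 lies inside its band, and that of replicate 2 lies below it.

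Ordered by mean, the levels ran WND1A, WND1B, WND2A, WND5A, WND5B, WND3B, WND2B, WND3A and WND4B. Of the 8 neighbouring pairs in this order, 2 had overlapping values, WND1B with WND2A and WND3B with WND2B. Only 3 neighbouring pairs were farther apart than the SD of the lower gene's level class: WND1A over WND1B, WND5A over WND5B, and WND5B over WND3B, at 2.16-fold, 1.82-fold and 2.20-fold. The other 5 neighbours did not differ beyond that spread. It is a rough scale, since it describes single loci between the libraries and not gaps between the means of 2 genes. Against a robust SD, taken from the median absolute deviation and less moved by extreme loci, 6 of the 8 pairs were farther apart. The 3 added pairs were WND1B over WND2A, WND2A over WND5A and WND3A over WND4B.

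Between the 2 libraries, none of the 9 members was called apart, a call that needed a 2-fold difference and a mean of at least 1 FPKM. Of all 21247 loci with such a mean, 5.03% were called. WND3B came closest, at 1.97-fold, and was past 2-fold once the libraries were scaled to each other, at 2.01-fold by the median of ratios and 2.03-fold by the listed sum. WND4B was 1.93-fold apart but had a mean under 1 FPKM, in a class where 34.8% of loci were 2-fold apart. The log2 ratio of replicate 2 to replicate 1 was 0.98 for WND3B, 0.95 for WND4B and 0.37 for WND3A. For the remaining 6 members it lay between -0.81 and 0.05.

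WND1B was the member whose libraries differed most for its level. Its log2 ratio was -0.81, and only 4.88% of the 9415 loci in its level class were at least as far apart. WND1B rested on at least 117 reads in replicate 1 and 76 reads in replicate 2. On these reads, an exact binomial test of the libraries gave p = 0.00012, and 0.0015 after Benjamini-Hochberg adjustment over 12055 loci. That test covers counting error alone and compares 2 libraries, not conditions, and it called 16.7% of those loci. Because the reads are lower bounds, the test may give p-values that are too large and call too few loci. No other member with recovered reads passed it, and WND3B came next with an adjusted p of 0.068 by the same exact test. The partner WND1A, with 583 and 612 reads or more, was 1.09-fold apart, with an adjusted p of 0.39 by the exact binomial test.

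**Figure D4:**
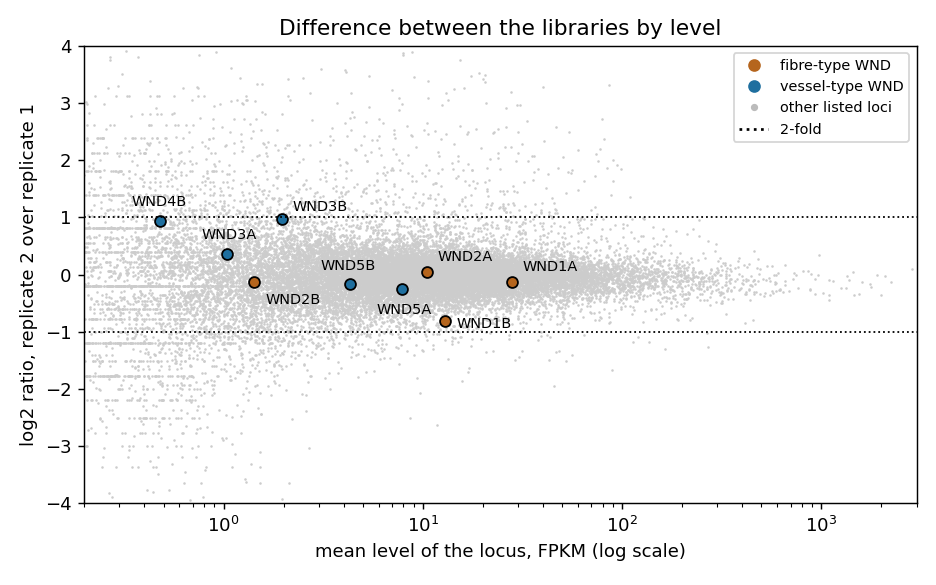
Log2 ratio of replicate 2 over replicate 1 against mean FPKM (log scale) for listed loci above 0 in both libraries with a mean of 0.2 FPKM or more, in grey, with the WND genes labelled and dotted lines at 2-fold. Loci beyond the ends of the axes are not drawn. WND1B lies at the lower edge of the cloud at its level, WND3B and WND4B lie just under the upper line, and the other members lie within the cloud.

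The files listed 17 transcripts for the 9 loci, and 15 of them were above 0 in at least 1 library. The WND1 copies, WND2A, WND3B and WND4B each have 1 listed transcript. In Populus trichocarpa, a transcript of a WND1 copy that keeps an intron is known to encode a shortened protein that opposes the full-length one. With 1 listed transcript per WND1 locus, these values cannot separate such a form. WND2B and WND3A have 2 listed transcripts each, and all of their FPKM lay in transcript 1, with transcript 2 listed at 0 in both libraries.

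The WND5 copies have 4 listed transcripts each, and transcript 2 led in both copies and both libraries. In WND5A, transcript 2 measured 6.90 FPKM in replicate 1 and 5.51 FPKM in replicate 2, which was 80.7% and 77.0% of the locus. In WND5B, transcript 2 measured 2.64 FPKM in replicate 1 and 2.56 FPKM in replicate 2, which was 57.9% and 63.2% of the locus. Over the 1601 detected loci with 4 listed transcripts, the leader held a median of 80.7% in replicate 1 and 81.5% in replicate 2, so WND5A stood near the median. In WND5B the leader's share was below the lower quartile of such loci in replicate 1, which was 62.1%, and next to it in replicate 2, where it was 63.1%.

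Transcript 3 was the second of each WND5 locus. It measured 1.65 FPKM in replicate 1 and 0.832 FPKM in replicate 2 for WND5A, and 1.16 FPKM and 1.06 FPKM for WND5B. Taken by number, the copies differed most in transcript 2, whose mean was 6.20 ± 0.98 FPKM in WND5A and 2.60 ± 0.055 FPKM in WND5B (SD, n = 2). Whether transcripts of the same number are the same form in both copies was not checked, as no annotation or sequence was used. The minor transcripts 1 and 4 did not behave alike in the libraries. For WND5A both were listed at 0 in replicate 1 and were at 0.221 and 0.595 FPKM in replicate 2. For WND5B, transcript 1 measured 0.346 FPKM in replicate 1 but was listed at 0 in replicate 2, while transcript 4 was at 0.415 and 0.434 FPKM. The program that divided reads among transcripts is not given in the sources used here, so these shares are those of the deposited values.

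**Figure D5:**
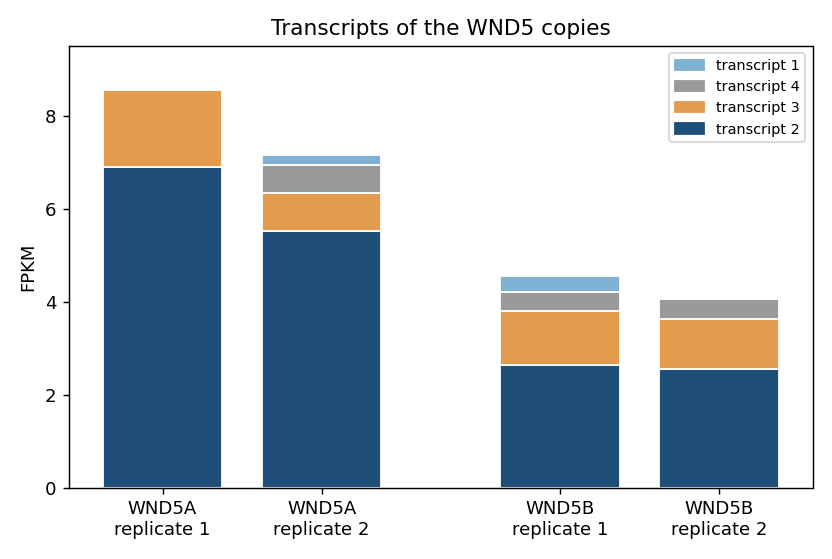
FPKM of the 4 listed transcripts of WND5A and WND5B in each library, stacked to the locus sum. Transcript 2, the lowest block, is the largest part of every bar, and it makes up 80.7% and 77.0% of WND5A and 57.9% and 63.2% of WND5B.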

How the data were processed

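The authors deposited 1 FPKM value per transcript and library, per the file headers. Bowtie2 2.2.3 and HISAT2 2.1.0 appear in the submitters' processing notes without a role. The FPKM program, genome build, annotation and filters are not given there. The IDs have the Potri form of P. trichocarpa loci. The list holds 65535 transcripts and stops within number field 17, so any loci after that point are absent. All shares, medians and sums over listed or detected loci cover this list only.

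FPKM were used as deposited and summed per locus (Python 3.11.15, pandas 2.3.3, scipy 1.17.1). Detected means at least 1 FPKM in both libraries. The permutation and sign-flip tests are exact and two-sided. For the 15694 loci with 1 transcript above 0 and values in both libraries, whole reads were sought as the smallest pair whose ratio, times the FPKM of 1 read in replicate 2 over replicate 1 (0.876), gave the ratio of the FPKM values within a relative 1e-08. This gave whole reads for 84.2% of loci, and for 0.535% after the constant was deliberately multiplied by 1.0123. Reads are lower bounds, raised where needed to make the implied transcript length whole. Their totals assume that lengths share no factor. All 7 members other than WND5A and WND5B gave reads. The recovery was tested on simulated data.

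The rule for members uses IDs only, but members, lists and tests were proposed with earlier results of these data known. The level class below 1 FPKM, the setting without WND1A, the sign-flip test, the robust SD and the count of members past the binomial test were added after seeing the values; the plan allowed the binomial test if reads could be recovered. A planned list of other secondary wall genes, tissue markers and protein comparisons were not used, as no table paired names or sequences with the IDs. All 9 members are named, by rule, and no gene was named for a like pattern, which 2 libraries of 1 group cannot give.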

Additional observations from a re-analysis of the deposited data

How the results depend on the processing

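Of 100 recomputed values, 82 stayed within 1 SD or, for counts, within 1.5 times, and none changed direction. Many of these could not have left those bounds, so the count is no measure of robustness. Leaving out a replicate always stays within 1 SD in a group of 2. The sign-flip setting repeats the main value, and leading transcripts only leaves loci with 1 transcript above 0 as they are. Scaling the libraries nearly cancels in a ratio taken within a library. The log2 ratio of the fibre-type over the vessel-type sum (1.75) was 1.63 to 1.88 in single libraries, 2.08 with means per locus, 2.65 with medians, 2.10 with leading transcripts only, 1.49 with a pseudocount of 5 and 0.66 without WND1A. With pseudocounts of 1 and 5, WND2A over WND2B was 2.25 and 1.27 and WND5A over WND5B was 0.74 and 0.46, as log2 values; WND3A over WND3B was -0.20 with 5. These falls follow from adding a constant to low values. With leading transcripts only, WND5A over WND5B was 1.21, and the levels were 6.20 FPKM for WND5A and 2.60 FPKM for WND5B, since the other transcripts are left out. At a minimum of 5 FPKM, 4 members were detected, and single libraries gave 7 to 8. The count of members apart (0) was 2 at 1.5-fold (WND1B and WND3B), 1 under the median of ratios and 1 under the same listed sum (WND3B in both). It was 1 by the exact binomial test (WND1B), which called 16.7% of the loci tested. No share of all loci is set beside the counts at 5 FPKM, at 1.5-fold or after scaling, so these counts describe the settings only. Pairing within libraries (a replicate block, added after seeing the data) leaves each log2 ratio as it is (1.75, 1.16, 2.80, -0.79 and 0.85), with an exact p = 0.5. No paired analysis of sample groups was possible because both libraries belong to 1 group. Depth limits the lowest genes: near 1 FPKM, loci with recovered reads had a median of at least 12 reads in replicate 1.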
